A study of Homo sapiens with 4 samples.

Results

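The aminoacyl-tRNA synthetase genes of SEM leukaemia cells were compared between cells retrieved from the brain and cells retrieved from the spleen of transplanted mice. The members were taken by gene symbol: the 34 synthetase genes comprised 19 that encode cytosolic enzymes (symbols ending in 1, together with FARSA and FARSB) and 15 that encode mitochondrial enzymes (symbols ending in 2). Each matched 1 of the 65217 gene rows of the count table through GENCODE 44, and all 34 were among the 17075 genes that passed the filter on low counts. Synthetases outside these 34 were not analysed here.

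SEM is an established cell line of human B-precursor acute lymphoblastic leukaemia with the t(4;11) translocation and its KMT2A-AFF1 (MLL-AF4) fusion. The cells were grown in medium with 25 mM glucose and 10% serum at 21% oxygen and transplanted into immunodeficient mice aged 6 to 10 weeks, and the sources used here give no strain. The brain group held 2 libraries of cells retrieved from the brain, for which the protocol names the leptomeninges, and the spleen group held 2 libraries of cells from the spleen. RNA of 5 mice was pooled for each library, and replicates 1 and 2 were made on independent occasions, so that n = 2 pools a group and the spread between single mice was not measured. Both groups carried the same fusion, had no drug or genetic treatment, and were purified on a density gradient.

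Aminoacyl-tRNA synthetases join each amino acid to its transfer RNA and so supply the ribosome with charged tRNA. One set works in the cytosol, where several of its members sit in a large multisynthetase complex held together by the scaffold proteins AIMP1, AIMP2 and EEF1E1, and a separate set, encoded by other nuclear genes, charges the tRNAs used to translate the mitochondrial genome. GARS1 and KARS1 each serve both compartments. Many cytosolic synthetase genes are targets of ATF4, the transcription factor induced when amino acids run short, through a promoter element that ATF4 binds with a C/EBP partner.

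The 4 libraries held 26266136 to 36913437 estimated human counts in the gene table. Counts assigned to mouse transcripts made up 2.24% and 1.45% in brain, against 4.31% and 6.32% in spleen. All 9 B-precursor markers examined were present in every library, with summed levels of 2481 and 2332 CPM (counts per 1e+06 counts) in brain, against 1955 and 2068 CPM in spleen. Of 11 markers of other blood cells 9 were under 1 CPM in every library, and their sum was 5.06 and 5.18 CPM in brain, against 8.67 and 9.46 CPM in spleen. Of 10 markers of brain and stromal cells 7 were under 1 CPM in brain and 8 in spleen, among them GFAP and SNAP25. That list summed to 248 and 200.3 CPM in brain, against 202 and 173 CPM in spleen, nearly all of it PDGFRB and PECAM1. The spleen libraries differed from each other more than the brain libraries did, since the chi-square of their counts averaged 9.49 over genes in brain and 67.6 in spleen. Spleen replicate 2 stood apart: its genes in the lowest 20% by GC content lay a median of -0.34 log2 units from their mean over the libraries, against 0.12 to 0.13 in the other 3. The part that mouse RNA, other cells or this library play in the results was not tested.

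The promoters are shown first, because the known control of these genes by ATF4 runs through a short element. A RefSeq promoter window on GRCh38.p14, from 250 bases before to 50 bases after the start of transcription, was given for 29 of the 34 genes: 16 cytosolic and 13 mitochondrial. The core of the ATF4 and C/EBP element, TGATGNAA searched on both strands, was present in a window of 7 of the 16 cytosolic genes (43.8%) and of 1 of the 13 mitochondrial genes (7.69%), against 4.46% of all 27305 genes with a window. A gene with several windows counts once. The 7 cytosolic genes were AARS1, CARS1, GARS1, IARS1, MARS1, NARS1 and TARS1, and the mitochondrial one was YARS2. The form TGATGCAA, which is one case of that core, was present in 6 of the 16 cytosolic genes (37.5%) and 0 of the 13 mitochondrial ones, against 1.08% of all genes. A match describes these letters only. Stretches of 6 genes with a TGATGNAA match are printed, in the direction of the gene, with the match in capitals. Those of IARS1 and NARS1 are not printed. The match reads TTGCATCA or TTTCATCA where it lies on the opposite strand. The printed stretches lie at chr16:70289660-70289719 (AARS1, minus strand), chr11:3057394-3057451 (CARS1, minus), chr7:30594819-30594878 (GARS1, plus), chr12:57488038-57488097 (MARS1, plus), chr5:33440941-33440994 (TARS1, plus) and chr12:32756061-32756120 (YARS2, minus).
AARS1: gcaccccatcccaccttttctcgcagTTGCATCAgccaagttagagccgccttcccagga
CARS1: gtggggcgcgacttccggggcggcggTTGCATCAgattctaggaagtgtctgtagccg
GARS1: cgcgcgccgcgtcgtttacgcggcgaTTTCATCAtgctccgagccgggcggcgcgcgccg
MARS1: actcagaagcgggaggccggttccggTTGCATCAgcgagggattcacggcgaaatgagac
TARS1: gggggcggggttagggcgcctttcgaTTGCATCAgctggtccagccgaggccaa
YARS2: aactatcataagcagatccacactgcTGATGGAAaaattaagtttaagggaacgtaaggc

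HARS1 and HARS2, the cytosolic and mitochondrial histidine enzymes, are neighbours on opposite strands, and the gene bodies overlap by 108 bases in GENCODE 44. The 84 bases between their starts in the promoter table are chr5:140691371-140691454, printed here on the plus strand because 1 stretch serves a gene of each class. The capitals mark a match to CCGGAAGT, the core bound by ETS factors, at each end; this motif was added after the stretch had been read.
HARS1/HARS2: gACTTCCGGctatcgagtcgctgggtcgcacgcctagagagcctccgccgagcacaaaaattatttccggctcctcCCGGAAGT
CCGGAAGT was present in 5 of 16 cytosolic and 2 of 13 mitochondrial genes, against 4.95% of all genes. These counts include HARS1 and HARS2, whose matches lie in the stretch that led to the motif. The others were CARS1, NARS1, TARS1 and WARS1 among the cytosolic genes and EARS2 among the mitochondrial ones. The element of the respiratory factor NRF1 was present in 0 of 16 cytosolic genes and in 1 of 13 mitochondrial genes, MARS2, against 1.52% of all genes.

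No synthetase passed the test between brain and spleen. The test was edgeR's quasi-likelihood test with Benjamini-Hochberg adjustment over all 17075 genes, and a gene was called at an adjusted p under 0.05. It called 0 of 34 synthetases, against 345 of all genes (2.02%), of which 279 were higher in brain (1.63%) and 66 lower (0.387%). DESeq2 also called 0 of 34, where it called 6.36% of all genes, and edgeR with the replicate number as a block called 0 of 34, where it called 10.9%. At an unadjusted p under 0.05 there were 6 synthetases, against 20.6% of all genes. All 6 were lower in brain, a direction taken at that threshold by 9.94% of all genes: YARS1, MARS1, FARSA and HARS1 among the cytosolic genes, and FARS2 and SARS2 among the mitochondrial genes. None was higher at that threshold, against 10.7% of all genes. The 95% interval of every one of the 34 genes lay within a 2-fold change in either direction, with the lowest bound at -0.88 and the highest at 0.89 on the log2 scale.

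Most of the small differences pointed downwards in brain. The log2 fold change, brain over spleen, was negative in 25 of 34 synthetases and positive in 9, against 46.7% negative over all genes, and its median was -0.13, against 0.04 over all genes tested. Without spleen replicate 2, 21 were negative and 13 positive, against 47.4% negative over all genes, and 10 synthetases had changed sign; of the mitochondrial genes 7 were then negative and 8 positive. In 16 synthetases both brain libraries lay below both spleen libraries, in 3 both lay above and in 15 the groups overlapped. Over all genes brain lay below spleen in 26.7% and above it in 30.2%. In bulk RNA, fewer cells with a transcript and less of it per cell cannot be told apart.

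**Figure D1:**
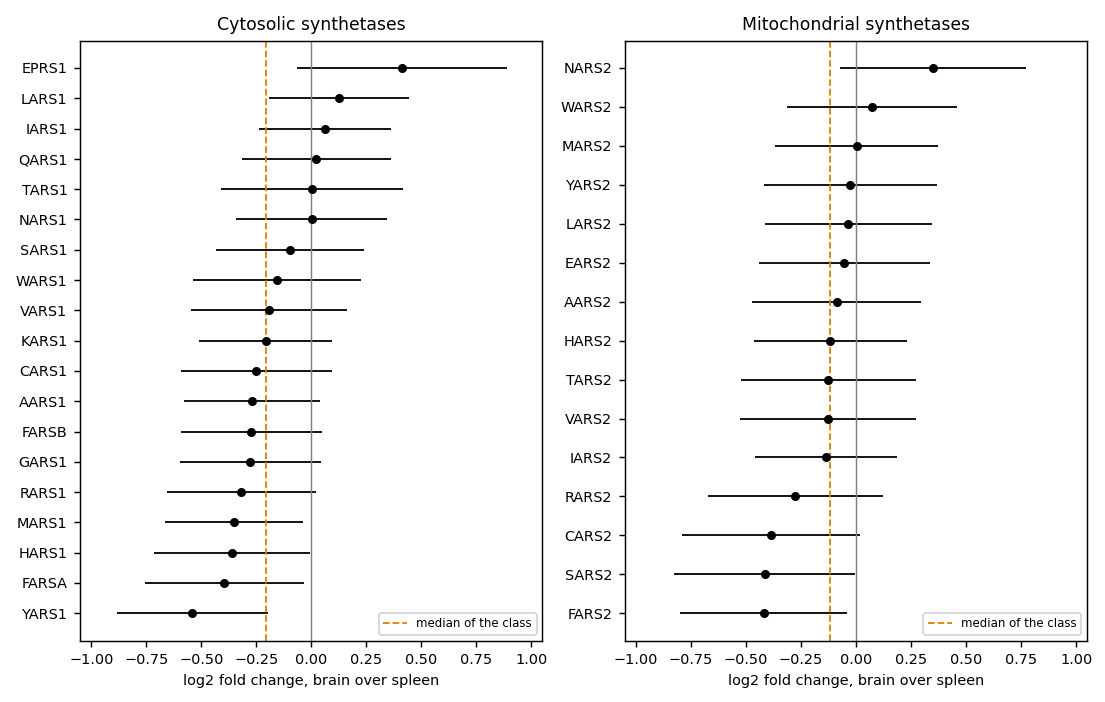
Log2 fold change, brain over spleen, of the 19 cytosolic (left) and 15 mitochondrial (right) synthetases, with 95% intervals as bars and the median of each class as a dashed line. The intervals of 6 genes exclude 0, all on the negative side, and the class medians stand at -0.21 and -0.12.

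The class medians lay 0.09 log2 units apart, a difference that was not tested. The median log2 fold change was -0.21 over the cytosolic genes, with 13 negative and 6 positive, and -0.12 over the mitochondrial genes, with 12 negative and 3 positive. The cytosolic median was the lower one here and under each of the other settings examined, where the cytosolic minus the mitochondrial median ran from -0.19 to -0.09. Within occasions, the cytosolic median was -0.17 in replicate 1 and -0.31 in replicate 2, and the mitochondrial median was 0.01 and -0.18, while the median of all genes was 0.00 and 0.06. Without spleen replicate 2, the mitochondrial median turned to 0.04 and the cytosolic median was -0.15. Summed over the class, the cytosolic genes held 3028 and 2922 CPM in brain, against 3179.6 and 3239.5 CPM in spleen, and on this scale the brain libraries were below both spleen libraries. In TPM (transcripts per 1e+06 transcripts) the cytosolic sums were 1829 and 1834 in brain, against 1881 and 1760.1 in spleen, and the groups overlapped. The mitochondrial genes summed to 603 and 561 CPM in brain, against 605 and 632 CPM in spleen. Per transcript length, the cytosolic sum in TPM was 5.01 and 5.01 times the mitochondrial sum in brain, against 5.08 and 4.88 times in spleen, and these ratios overlapped too.

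**Figure D2:**
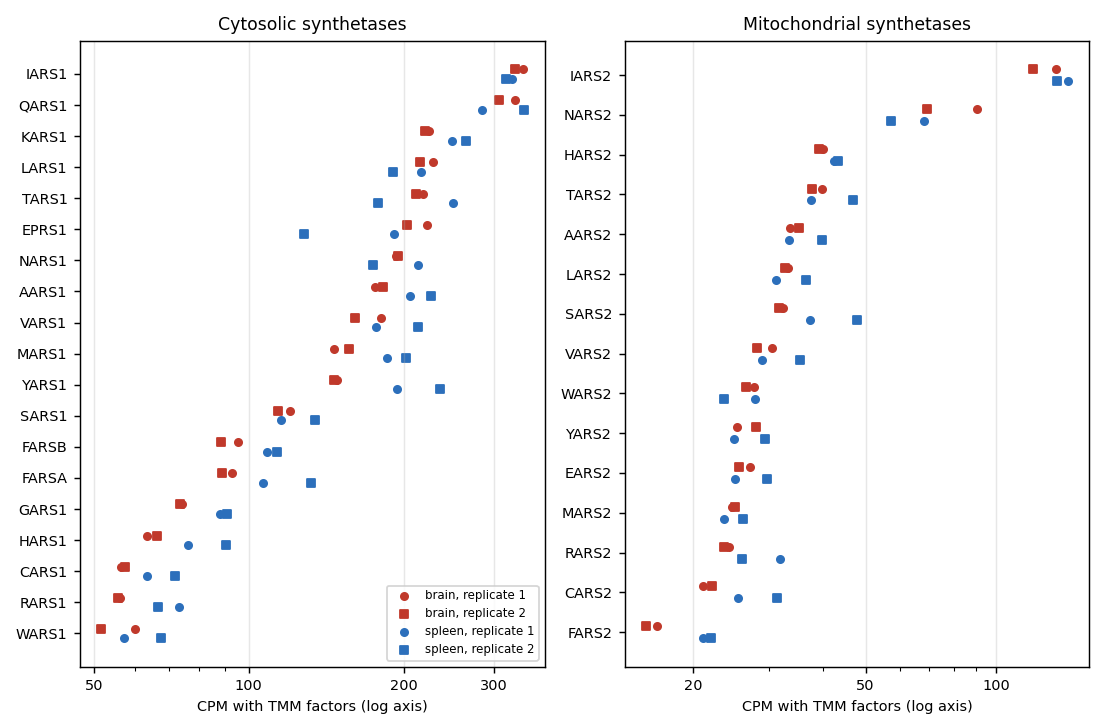
Level of each synthetase in each library, in CPM with TMM scaling on a log axis, for cytosolic (left) and mitochondrial (right) genes in order of their mean level in brain. The brain points lie left of both spleen points in 10 of 19 cytosolic and 6 of 15 mitochondrial genes.

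YARS1, the cytosolic tyrosine enzyme at chr1:32775237-32818031 on the minus strand, had the largest difference of the set. It was at 149 and 147 CPM in brain, against 194 and 236 CPM in spleen, so brain lay below spleen on both occasions. The log2 fold change was -0.54 ± 0.15 (SE), with a 95% interval of -0.88 to -0.20 and an adjusted p of 0.108. This gene stood near the threshold. Its adjusted p was 0.0556 with the replicate block and 0.0662 in DESeq2. A fit that leaves out a library has a single pool in 1 group, so its adjusted p is not given here. YARS1 was called without the filter on low counts (adjusted p = 0.0123), where 6.15% of all genes were called. It was also called with offsets for GC content and length (log2 fold change -0.57, adjusted p = 0.0261), where 7.06% were called.

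FARSA and FARSB encode the catalytic and the partner subunit of the cytosolic phenylalanine enzyme, which works as a tetramer of both. FARSA, at chr19:12922479-12934037 on the minus strand, had 92.9 and 88.7 CPM in brain, against 107 and 132 CPM in spleen, which is -0.39 ± 0.16 (SE) in log2 fold change with adjusted p = 0.209. FARSB had 95.4 and 88.3 CPM in brain, against 109 and 114 CPM in spleen, which is -0.27 ± 0.14 (SE) in log2 fold change with adjusted p = 0.307. Both subunits lay lower in both brain libraries than in either spleen library. Neither passed the test, and without spleen replicate 2 the value of FARSA was -0.22.

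HARS1, the cytosolic histidine enzyme at chr5:140673035-140691537 on the minus strand, had 63.3 and 66.2 CPM in brain, against 76.0 and 90.4 CPM in spleen. Its log2 fold change was -0.36 ± 0.15 (SE), with adjusted p = 0.234. HARS2, which starts at the other end of the interval printed above, had 39.9 and 39.0 CPM in brain, against 42.4 and 43.2 CPM in spleen, which is -0.12 ± 0.15 (SE) in log2 fold change with adjusted p = 0.692. The groups did not overlap in either gene of the pair, and both brain values were the lower ones. Without spleen replicate 2 the value of HARS1 was -0.22.

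MARS1, the methionine enzyme, at chr12:57475445-57517569 on the plus strand, overlaps the stress gene DDIT3 on the opposite strand. It had 147 and 157 CPM in brain, against 186 and 202 CPM in spleen. Its log2 fold change of -0.35 ± 0.14 (SE), with adjusted p = 0.197, was nearly the same in both occasions, at -0.34 and -0.36.

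EPRS1 ran the other way. It encodes the fused enzyme that charges both glutamate and proline tRNAs, and it lies at chr1:219968600-220046530 on the minus strand. It had 222 and 203 CPM in brain, against 192 and 128 CPM in spleen. Brain lay above spleen, but the spleen replicates lay further apart than the groups' nearest values. The log2 fold change was 0.41 ± 0.20 (SE), with an interval of -0.06 to 0.89 and an adjusted p of 0.299. Without spleen replicate 2 it was 0.16. Without spleen replicate 1 it was 0.68, in a fit where the spleen group held a single pool. With offsets for GC content and length it was 0.09; that setting moved the median of all genes by -0.10.

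QARS1, the cytosolic glutamine enzyme at chr3:49095932-49105130 on the minus strand, was the most abundant synthetase per length, at 284 and 282 TPM in brain, against 233 and 261 TPM in spleen. In CPM it had 329 and 307 in brain, against 284 and 342 in spleen, and the groups overlapped. Its log2 fold change was 0.02 ± 0.15 (SE), with adjusted p = 0.944.

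The other 13 cytosolic genes had log2 fold changes between -0.32 (RARS1, for arginine) and 0.12 (LARS1, for leucine), with adjusted p-values of 0.265 or more. In 6 of them brain lay below spleen: RARS1, GARS1 (glycine), FARSB, AARS1 (alanine), CARS1 (cysteine) and KARS1 (lysine). IARS1, for isoleucine, lay above in brain at 342 and 329 CPM, against 325 and 317 CPM in spleen, a log2 fold change of 0.06. The groups overlapped for VARS1 (valine, -0.19), WARS1 (tryptophan, -0.16), SARS1 (serine, -0.10), NARS1 (asparagine, 0.00), TARS1 (threonine, 0.00) and LARS1. For TARS1 the 2 spleen libraries had 249.99 and 178 CPM and enclosed both brain values of 218 and 211 CPM. LARS1 depended on the table: the gene counts gave 0.12 in log2 fold change, while its transcripts summed from the transcript files gave 0.33, with 87.3 and 81.2 TPM in brain, against 59.6 and 45.2 TPM in spleen.

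Among the mitochondrial genes, FARS2 and SARS2 had the largest negative differences. FARS2, the single-subunit phenylalanine enzyme of mitochondria at chr6:5261044-5829192 on the plus strand, had 16.6 and 15.6 CPM in brain, against 21.1 and 22.0 CPM in spleen. Its log2 fold change was -0.42 ± 0.16 (SE), with adjusted p = 0.203. SARS2, for serine, at chr19:38915266-38930763 on the minus strand, had 32.3 and 31.6 CPM in brain, against 37.3 and 47.9 CPM in spleen, which is -0.42 ± 0.18 (SE) in log2 fold change with adjusted p = 0.235. In both genes the brain replicates lay close together and below both spleen libraries. The value of SARS2 rested on spleen replicate 2, without which it was -0.21, while FARS2 was then -0.38.

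CARS2, for cysteine, at chr13:110641412-110713603 on the minus strand, had 21.1 and 22.2 CPM in brain, against 25.4 and 31.2 CPM in spleen, which is -0.39 ± 0.17 (SE) in log2 fold change with adjusted p = 0.258. It was -0.22 without spleen replicate 2. NARS2, for asparagine, at chr11:78435620-78575194 on the minus strand, was the mitochondrial gene with the largest positive value. It had 90.5 and 69.2 CPM in brain, against 68.2 and 57.1 CPM in spleen, which is 0.35 ± 0.18 (SE) in log2 fold change with adjusted p = 0.318. Brain lay above spleen by a narrow margin, since the lower brain library was at 69.2 and the higher spleen library at 68.2 CPM, and without brain replicate 1 the value was 0.14.

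IARS2, for isoleucine, lies at chr1:220094132-220148041 on the plus strand. It was the most abundant mitochondrial synthetase per length in the mean over the 4 libraries, at 53.0 TPM, against 50.1 TPM for NARS2. In brain alone the mean of NARS2 was the higher one, at 54.8 against 52.7 TPM. IARS2 had 55.03 and 50.4 TPM in brain, against 57.2 and 49.3 TPM in spleen. It had 137 and 122 CPM in brain, against 147 and 138 CPM in spleen, which is -0.14 ± 0.14 (SE) in log2 fold change with adjusted p = 0.612. The remaining 10 mitochondrial genes lay between -0.28 (RARS2, for arginine) and 0.07 (WARS2, for tryptophan). Brain lay below spleen in RARS2 and HARS2, and the groups overlapped in VARS2, TARS2, AARS2, EARS2, LARS2, YARS2, MARS2 and WARS2. For EARS2, the glutamate enzyme, the gene counts gave -0.05 and the transcript files 0.14.

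**Figure D3:**
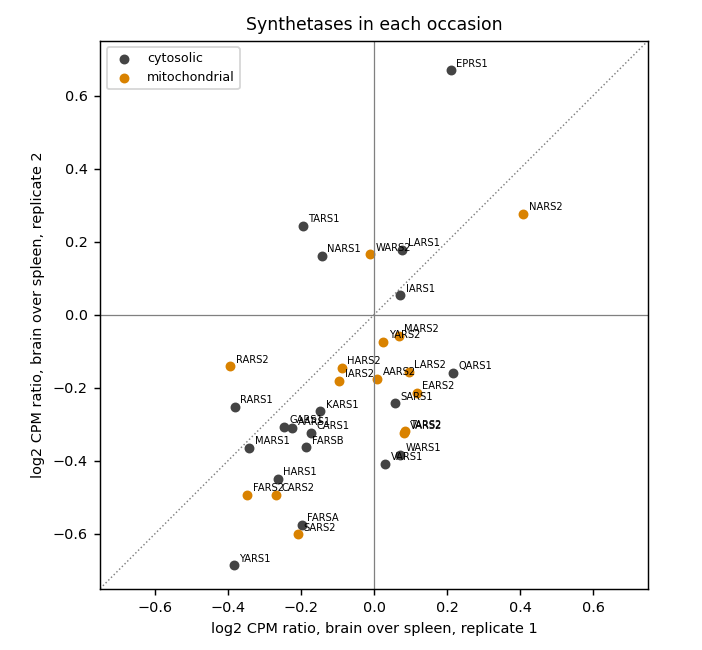
Log2 ratio of CPM, brain over spleen, in replicate 1 (x axis) and replicate 2 (y axis) for each cytosolic and mitochondrial synthetase; the dotted line marks equal ratios. The lower left quadrant, negative in both occasions, holds 16 genes, the upper right holds 4 and 14 lie in the other quadrants. The shares of all genes in these quadrants were not measured.

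The protocol ties replicates 1 and 2 to separate occasions of the transplant experiment, so the ratio was also read within each. The ratio was negative on both occasions in 16 synthetases, positive on both in EPRS1, NARS2, LARS1 and IARS1, and of mixed sign in 14. How all genes divide in this way was not measured, so whether these counts are unusual cannot be told. YARS1 had -0.38 and -0.69, SARS2 -0.21 and -0.60, and FARS2 -0.35 and -0.49. TARS1 had -0.20 and 0.24 and QARS1 0.22 and -0.16, so for these abundant genes the sign depended on the occasion.

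Cytosolic and mitochondrial enzymes for the same amino acid were set side by side for 16 pairs over 15 amino acids, where FARS2 was paired with each cytosolic phenylalanine subunit. The cytosolic gene had the higher level per length in 16 of 16 pairs, by 1.46 times for cysteine to 11.0 times for methionine and a median of 3.55 times in mean TPM over the 4 libraries. The fold change between brain and spleen had no such order: the cytosolic partner had the lower value in 8 pairs and the higher value in 8, and the median difference was -0.01 log2 units. On both occasions the cytosolic partner was the lower in 6 pairs and the higher in 5, and in 5 the occasions differed.

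**Figure D4:**
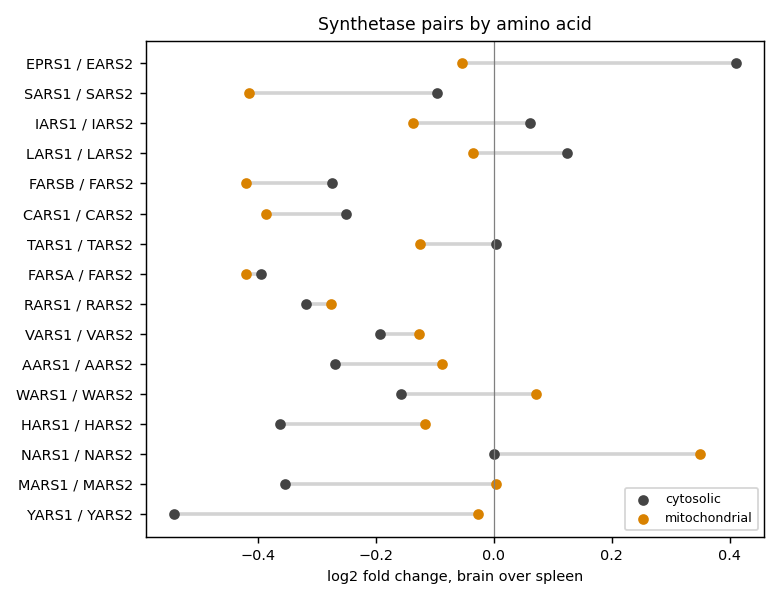
Log2 fold change, brain over spleen, of the cytosolic and mitochondrial synthetase for each amino acid, joined by a line and sorted by their difference. The cytosolic point lies left of the mitochondrial point in 8 of 16 pairs, furthest for tyrosine, and right of it in 8, furthest for glutamate.

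The pairs at the ends were tyrosine and glutamate. YARS1 had -0.54 and YARS2 -0.03, a difference of -0.51 with the same sign in both occasions. EPRS1 had 0.41 and EARS2 -0.05, a difference of 0.46, of which the occasions gave 0.09 and 0.88. For phenylalanine the values of both compartments were close, with FARSA at -0.39, FARSB at -0.27 and FARS2 at -0.42, none of which passed the test. Pairs were not tested against each other.

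Within the cytosolic class, the 7 synthetases of the multisynthetase complex (EPRS1, IARS1, KARS1, LARS1, MARS1, QARS1 and RARS1) had a median log2 fold change of 0.02, with 4 positive and 3 negative. The 12 outside it had a median of -0.26, with 2 positive and 10 negative. The gap depended on the processing: with the GC content and length offsets, which moved the median of all genes to -0.06, the medians were -0.20, with 2 positive and 5 negative, and -0.24. Settings without these offsets kept a gap, such as -0.01 and -0.29 with RLE scaling, and 0.05 and -0.20 without spleen replicate 2. The median GC content of the transcripts was 43.6% for the complex genes and 52.2% for the others. No gene of either group was called, and the difference between the groups was not tested. The 12 synthetases known to respond to ATF4 had a median of -0.13 and the other 7 cytosolic genes -0.27, against -0.22 and -0.24 with those offsets. The 7 cytosolic genes with a TGATGNAA match had a median of -0.25, and the 9 with a window but no match had -0.21. Split by the fold of the catalytic domain, the 18 class I enzymes had a median of -0.13 and the 15 class II enzymes -0.21, against -0.22 and -0.21 with the offsets and -0.03 and -0.19 without spleen replicate 2; EPRS1 holds 1 domain of each and was counted in neither. The median of all genes without offsets was 0.04.

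Of the scaffold proteins of the complex, 0 of 3 were called by edgeR, 1 had an unadjusted p under 0.05, and 0 were called with the replicate block. For these counts and those below, the shares over all genes were 2.02%, 20.6% and 10.9% in that order. AIMP1 had 74.4 and 69.8 CPM in brain, against 81.2 and 53.0 CPM in spleen, and EEF1E1 had 50.2 and 45.7 CPM in brain, against 63.0 and 52.8 CPM in spleen. AIMP2 had 14.5 and 14.9 CPM in brain, against 19.4 and 26.8 CPM in spleen, or -0.65 in log2 fold change (adjusted p = 0.134), lower than that of any synthetase. Of 6 accessory genes of tRNA charging, which export, edit or mature tRNAs, 0 were called and 1 had an unadjusted p under 0.05. Of these 6, 2 had a positive log2 fold change and 4 a negative one. XPOT, the tRNA exporter and the most abundant, had 287 and 293 CPM in brain, against 298 and 263 CPM in spleen. DTD1 had 40.1 and 34.4 CPM in brain, against 44.5 and 46.0 CPM in spleen. Of 4 genes for the mitochondrial amidotransferase, which makes glutaminyl-tRNA without a synthetase of its own, and the methionyl-tRNA formyltransferase, 0 were called and 0 had an unadjusted p under 0.05. Their log2 fold changes lay between -0.21 and 0.18, with 2 positive and 2 negative. GATC had 54.9 and 56.4 CPM in brain, against 52.3 and 51.5 CPM in spleen. QRSL1 had 40.2 and 37.9 CPM in brain, against 35.6 and 33.5 CPM in spleen.

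The factors that deliver charged tRNA to ribosomes, and those that work beside them, had values of both signs in each compartment. Of 6 cytosolic elongation factors 0 were called, and 1 had an unadjusted p under 0.05. Over all genes edgeR called 2.02%, the replicate block called 10.9%, and 20.6% had an unadjusted p under 0.05. EIF5A, which helps the ribosome past difficult peptide bonds, had 416 and 388 CPM in brain, against 571 and 708 CPM in spleen, a log2 fold change of -0.67 with an adjusted p of 0.0736; with the replicate block it was called. EEF1A1, which carries charged tRNA to the ribosome, had 18888 and 17561 CPM in brain, against 15596 and 15148 CPM in spleen, or 0.25 in log2 fold change (adjusted p = 0.397). EEF2 had 3847 and 3391 CPM in brain, against 2678 and 3134 CPM in spleen, or 0.32 in log2 fold change (adjusted p = 0.294). Over the 6 factors the median was 0.09, with 4 positive and 2 negative. Of 9 mitochondrial translation factors 0 were called and 2 had an unadjusted p under 0.05. Their median log2 fold change was 0.05, with 5 positive and 4 negative, and -0.12 with the GC content and length offsets. GFM1 had 78.9 and 75.1 CPM in brain, against 82.6 and 66.4 CPM in spleen, or 0.05 in log2 fold change (adjusted p = 0.895). The 2 with an unadjusted p under 0.05 were TUFM and TSFM. TUFM, the mitochondrial counterpart of EEF1A1, had 269.9 and 264 CPM in brain, against 351 and 485 CPM in spleen, a log2 fold change of -0.65 with an adjusted p of 0.104, and it was called with the block. TSFM, its exchange factor, had 30.6 and 29.1 CPM in brain, against 41.7 and 46.9 CPM in spleen, or -0.57 in log2 fold change (adjusted p = 0.111).

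Among ATF4 targets outside the synthetases, 1 of 16 was called by edgeR, higher in brain, where 2.02% of all genes were called, and the median log2 fold change was -0.26, with 5 positive and 11 negative. The block called 3, where it called 10.9% of all genes. STC2, a secreted glycoprotein of the stress response, had 54.8 and 51.6 CPM in brain, against 22.3 and 22.8 CPM in spleen, or 1.24 in log2 fold change (adjusted p = 0.0116). ATF4 itself had 394 and 372 CPM in brain, against 474 and 540.2 CPM in spleen, or -0.41 in log2 fold change (adjusted p = 0.16). Of the 6 kinases and phosphatase subunits that set eIF2 alpha phosphorylation, the step upstream of ATF4, 1 was called (2.02% of all genes); the block called 2 (10.9%). PPP1R15A, the inducible phosphatase subunit, had 47.6 and 41.6 CPM in brain, against 25.6 and 22.8 CPM in spleen, or 0.88 in log2 fold change (adjusted p = 0.0437). EIF2AK4, the kinase that senses uncharged tRNA, had 93.7 and 86.0 CPM in brain, against 82.2 and 82.7 CPM in spleen (adjusted p = 0.651).

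WARS1 is known for its induction by interferon gamma, so other genes of that response were set beside it. WARS1 had 60.2 and 51.7 CPM in brain, against 57.3 and 67.4 CPM in spleen, or -0.16 in log2 fold change (adjusted p = 0.62). Of 9 interferon gamma responsive genes 7 passed the filter and 1 was called (2.02% of all genes); the block called 2 (10.9%). The median log2 fold change of the 7 was 0.39, with 5 positive and 2 negative. With the GC content and length offsets the median was 0.05. CIITA, the activator of MHC class II genes, had 159 and 135 CPM in brain, against 48.9 and 58.5 CPM in spleen, or 1.45 in log2 fold change (adjusted p = 0.00747). IRF1, a transcription factor of the response, had 121 and 115 CPM in brain, against 115 and 148 CPM in spleen, or -0.16 in log2 fold change (adjusted p = 0.613).

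The transcript files allowed the isoforms to be read, a step chosen after the gene results were seen. The 34 genes had 402 transcripts, of which 194 passed the filter. With edgeR over 59159 transcripts, 0 of these 194 were called, where 0% of all transcripts were called. At an unadjusted p under 0.05 there were 24 (12.4%), against 13.8% of all transcripts, and the lowest adjusted p was 0.148. The uncertainty of assigning reads to isoforms that share most of their sequence is not part of this test.

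The 3 transcripts of IARS1 named here differed between the groups in both directions, beside the log2 fold change of 0.06 for the gene. The coding transcript IARS1-203 was at 26.8 and 22.9 TPM in brain, against 3.28 and 1.49 TPM in spleen, or 3.23 in log2 fold change (adjusted p = 0.152). IARS1-204, which is annotated as a target of nonsense-mediated decay, was at 31.2 and 33.2 TPM in brain, against 46.9 and 49.1 TPM in spleen (adjusted p = 0.196). IARS1-202, which codes for a protein of the same length as IARS1-203, was at 42.6 and 43.9 TPM in brain, against 39.4 and 30.5 TPM in spleen. No transcript passed the test. Other IARS1 transcripts are not described here, and the share of all transcripts without overlap between the groups was not measured.

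**Figure D5:**
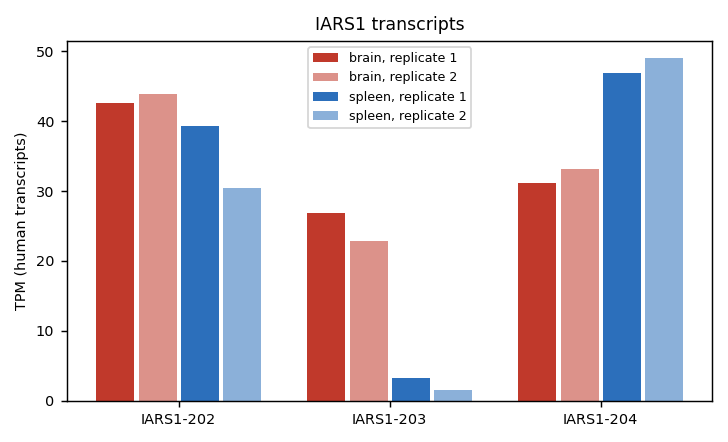
Level of 3 transcripts of IARS1 in TPM over human transcripts, 1 bar a library. IARS1-203 stands at 26.8 and 22.9 TPM in brain, against 3.28 and 1.49 TPM in spleen, and IARS1-204 is lower in both brain libraries than in either spleen library.

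KARS1 makes its cytosolic and mitochondrial enzymes from alternative transcripts of 1 gene. The shorter coding form, KARS1-201, was at 145 and 152 TPM in brain, against 161 and 153 TPM in spleen. The longer coding form, KARS1-202, which encodes the mitochondrial enzyme, was at 7.57 and 10.6 TPM in brain, against 7.91 and 6.41 TPM in spleen, and its groups overlapped. TARS1-205, a transcript with a retained intron, was at 3.69 and 7.49 TPM in brain, against 34.7 and 35.5 TPM in spleen, or -2.88 in log2 fold change (adjusted p = 0.156). MARS1-230, a coding transcript, was at 0.66 and 0 TPM in brain, against 17.5 and 18.2 TPM in spleen (adjusted p = 0.23). TARS1-205 and MARS1-230 were named after their values had been seen, and no rule set beforehand chose the IARS1 transcripts.

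Some members overlap other genes in the annotation, and shared reads were not measured. In GENCODE 44, 11 of the 34 overlap a protein-coding gene on the opposite strand, 4 overlap one on the same strand, and 11 have a named pseudogene. The kit marks strand, but the sources used here do not say whether the counting used it, so values of these genes are uncertain.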

How the data were processed

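RNA libraries from 2 brain and 2 spleen pools were sequenced from a stranded mRNA kit, per the labels' protocols. The submitters' processing notes name bcl2fastq 1.8.4, cutadapt 1.5, kallisto 0.42.4 and DESeq2, with builds GRCh38 and GRCm38. No release of the gene annotation is given in the sources used here. As to units, the deposited gene table holds whole counts of human genes, and the deposited transcript files hold kallisto estimated counts and TPM for 199596 human and 104229 mouse transcripts. Of the gene counts, 74.2% to 74.8% equalled the rounded transcript sums within 1 count, over genes above 50 counts. TPM were rescaled here to human transcripts. In all, 2 columns of per-sample values matched no sample and were not used.

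Symbols and coordinates came from GENCODE 44, which holds 56322 of the 65217 gene IDs (86.4%). Genes were filtered with filterByExpr, scaled by TMM and tested with edgeR 4.0.16 (robust quasi-likelihood, brain over spleen, R 4.3.3), with Benjamini-Hochberg adjustment over all tested genes and a threshold of 0.05. Intervals are 95%. CPM are per 1e+06 counts with TMM factors. The test was checked on simulated counts with changes larger than any seen among the synthetases. The check does not show how often changes of their size would be found. The count of 2 pools a group allows no exact permutation p below 0.333. Per the labels' protocols, replicates 1 and 2 are separate occasions on which spleen and leptomeningeal cells were taken from transplanted mice, and numbers were read as pairs on that ground alone; deviations of same-numbered libraries correlated at r = 0.01 (Pearson) and -0.02 (Spearman) across 17075 genes. Alternatives were RLE scaling, DESeq2 1.42.0, other filters, the replicate block, GC content and length offsets, transcript sums and leaving out each library.

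The members and lists were chosen with earlier results of these data known. Per-library values are given for called members, and in each class for the 4 of largest fold change with 5 CPM or more in the higher group and the most abundant one per length; MARS1 and others were added after their values were seen. Lists other than the cell markers give up to 3 called members, or the 2 most abundant where none was called. Other members of these lists, such as EIF5A, TSFM and AIMP2, were added after their values were seen. Sequences are from the RefSeq promoter table (GRCh38.p14). LARS1, VARS1, YARS1, AARS2 and VARS2 had no entry in it. The values of 1 gene of the interferon gamma list are not reported here.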

Additional observations from a re-analysis of the deposited data

How the results depend on the processing

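With 2 pools a group, the count of genes called moved with most settings. Against 345 genes, it was 959 in DESeq2, 2123 with no filter, 124 with at least 1 CPM in every library, 1853 with the replicate block, 1117 with GC content and length offsets, 1480 with those offsets and the block, and 404 to 6807 when 1 library was left out. For the synthetases, the block changed no call. The cytosolic genes called lower numbered 1 with no filter and 1 with the GC content and length offsets (YARS1 in both), and 0 to 13 when a library was left out; 0 to 1 were called higher, EPRS1. The mitochondrial genes called lower numbered 0 to 5. Without spleen replicate 1, 19 synthetases were called, 18 of them lower, where 37.9% of all genes were called; without spleen replicate 2, MARS1, RARS1, YARS1 and RARS2 were called lower, where 17.3% were called. The cytosolic median ran from -0.32 to -0.15 and the mitochondrial one from -0.20 to 0.038, with the positive value without spleen replicate 2. The cause was not tested. Where a library was left out, 1 group held a single pool. The spread within that group was then not estimated, so calls in those fits do not measure a difference between the sites.

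The GC content and length values were defined again after results had been seen, because annotated lengths differed from those in the files. Earlier definitions are given as alternatives. With annotated lengths, 1190 genes were called, and 2 cytosolic genes lower, FARSB (-0.76, adjusted p = 0.0264) and YARS1 (adjusted p = 0.0496). With transcripts matching within 5%, 1135 genes were called, and YARS1 had an adjusted p of 0.0721. FARSB and EARS2 had no GC value in the final definition and could not be fitted.

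These offsets moved the median of all genes by -0.10, and 8 synthetases near 0 changed sign: IARS1 -0.22, LARS1 -0.18, NARS1 -0.22, SARS1 0.014, TARS1 -0.13, MARS2 -0.077, WARS2 -0.12 and YARS2 0.022. With the block they were -0.21, -0.18, -0.22, 0.015, -0.13, -0.075, -0.12 and 0.025 in that order. With annotated lengths they were -0.22, -0.19, -0.19, 0.0090, -0.12, -0.080, -0.12 and 0.024. At the 5% match, IARS1 was -0.23, LARS1 was -0.18, NARS1 was -0.028, TARS1 was -0.14, AARS2 was 0.092, MARS2 was -0.079, WARS2 was -0.13 and YARS2 was 0.010. With RLE scaling NARS1 was -0.027, QARS1 was -0.011, TARS1 was -0.023 and MARS2 was -0.029, and with DESeq2 they were -0.027, -0.011, -0.023 and -0.029. Transcript sums gave EARS2 0.14.

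With a library left out, signs also changed within these ranges: AARS2 -0.26 to 0.056, EARS2 -0.22 to 0.088, LARS2 -0.20 to 0.097, MARS2 -0.12 to 0.090, NARS1 -0.13 to 0.11, QARS1 -0.16 to 0.18, SARS1 -0.25 to 0.030, TARS1 -0.21 to 0.22, TARS2 -0.33 to 0.057, VARS2 -0.32 to 0.038, WARS2 -0.029 to 0.15 and YARS2 -0.19 to 0.11.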
